A study of Mus musculus with 2 samples.

Results

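Nascent transcription of 9 genes of cholesterol efflux and lipoprotein handling was followed in mouse bone marrow-derived macrophages (BMDMs) left without cytokine or exposed to IL-4. The genes were the efflux pumps Abca1 and Abcg1, the sterol sensors Nr1h2 (LXRβ) and Nr1h3 (LXRα), the lipoprotein component Apoe, the receptor Lrp1, the ubiquitin ligase Mylip, and the lipid synthesis factors Srebf1 and Srebf2. Transcripts were assigned to them by gene name, and the group itself was chosen with earlier results of these data known. Transcripts that carried one of these names numbered 80 of the 43122 called in the control library and 42 of the 51365 called after IL-4, and the 9 genes were 9 of 11054 gene names in either library.

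Both libraries were made by GRO-seq (global run-on sequencing), in which engaged RNA polymerases extend their transcripts in isolated nuclei with a bromine-labelled nucleotide, so that RNA in the course of synthesis is captured. The cells came from wild-type mice aged 8 to 12 weeks, on the C57BL/6 background given in the study's methods, and were grown for 6 days in L929 supernatant, a source of the macrophage growth factor MCSF. The control cells received no IL-4, and the treated cells received 20 ng/ml IL-4 for 1 hr. Run-on reactions were done in duplicate and pooled before library preparation, which left 1 library per condition, no replicate error and no test of any difference below. The number of mice behind each library was not given in the sources used here.

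Macrophages take up cholesterol with lipoproteins and dying cells, and dispose of the excess through ABCA1 and ABCG1, which hand it to lipoprotein acceptors such as those that carry apolipoprotein E. The liver X receptors LXRα and LXRβ pair with RXR, sense oxidised cholesterol and switch on Abca1, Abcg1, Apoe, Mylip and Srebf1, while SREBP2, the product of Srebf2, is activated when membranes run short of sterol and drives cholesterol synthesis and uptake. LRP1 is a large endocytic receptor for apolipoprotein E-containing particles, and MYLIP is a ubiquitin ligase that limits lipoprotein uptake.

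Each called transcript is a strand-specific segment that has a score, a position and an annotation. The score was deposited rounded to 1 decimal, and the depth of the libraries is unknown. The value of a gene was the top score of all transcripts bearing its name. Its IL-4 to control ratio was expressed relative to that of the median gene, which was 0.769 on the linear scale and -0.38 in log2 over 8879 genes. The rounding range quoted with such a centred log2 ratio is the span that rounding of the printed scores allows and is not a replicate error. The IL-4 library held more and longer transcripts with lower scores: 78.0% of its transcripts scored at most 0.3, against 63.4% in control, and the median length was 312 bp against 227 bp. All 10 macrophage markers examined had transcripts on their own strand in both libraries, none of the 5 markers each of B cells, T cells, fibroblasts and dendritic cells did, and of 5 neutrophil markers 2 did in control and 1 after IL-4. Of 6 genes known to respond to IL-4, 1 had such a transcript in control against 5 after IL-4. Socs1, a feedback inhibitor of cytokine signalling, had a highest score of 0.3 in control and 2.5 after IL-4.

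Of the 9 genes, Abca1 and Lrp1 were at least 2-fold lower after IL-4 and Abcg1 was at least 2-fold higher, by the highest score. Another 5 genes, Mylip, Apoe, Nr1h2, Srebf1 and Srebf2, differed by less than 2-fold, and Nr1h3 had a named transcript in the control library only. Over all 8879 genes with a value in both libraries, 8.62% were at least 2-fold lower and 8.06% at least 2-fold higher. The median centred log2 ratio of the 8 genes with both values was -0.21, with 5 below and 3 above the median gene.

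**Figure D1:**
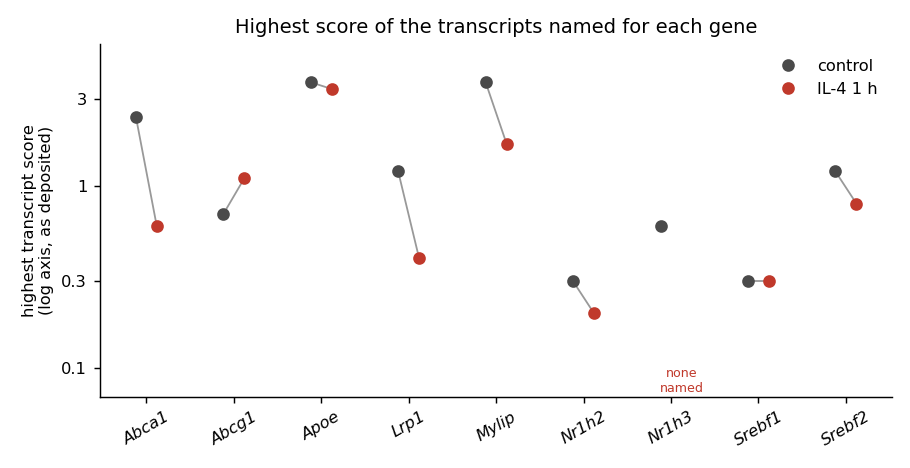
The vertical log axis gives the top score of the transcripts bearing each gene's name, in control (grey) and after 1 hr of IL-4 (red), 1 library each, with a line joining the 2 values of a gene. Abca1 (2.4 and 0.6) and Lrp1 (1.2 and 0.4) drop most, Abcg1 (0.7 and 1.1) is the only gene whose point is higher after IL-4, and Nr1h3 (0.6 in control) has no named transcript after IL-4.

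Abca1, which exports cholesterol and phospholipid to lipid-poor apolipoproteins, occupies chr4:53030787-53159895 on the minus strand (GRCm38). Its promoter is shown because the AGGTCA repeat with a spacer of 4 bases, the element that LXR and RXR bind, was searched in the promoters of the group. RefSeq windows from 250 bases before to 50 bases after a start were available for 8 of the 9 genes (13 windows, GRCm38.p6), and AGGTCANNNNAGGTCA with at most 3 mismatches, on either strand, occurred in 2 of them, the Abca1 promoter and the most downstream of the Srebf1 starts. The same criterion was met by 21.9% of all 32851 windows. The capitals mark the match, bases -67 to -52 before the Abca1 start and -182 to -167 before the Srebf1 start, both on the strand opposite to the gene and with 3 mismatches each.
Abca1 promoter, chr4:53159896-53160145, minus strand: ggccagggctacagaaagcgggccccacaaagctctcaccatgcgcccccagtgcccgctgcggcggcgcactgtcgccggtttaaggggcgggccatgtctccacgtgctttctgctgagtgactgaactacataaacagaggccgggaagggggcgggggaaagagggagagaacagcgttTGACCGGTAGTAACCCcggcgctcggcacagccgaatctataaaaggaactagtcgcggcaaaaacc
Srebf1 promoter, chr11:60210472-60210721, minus strand: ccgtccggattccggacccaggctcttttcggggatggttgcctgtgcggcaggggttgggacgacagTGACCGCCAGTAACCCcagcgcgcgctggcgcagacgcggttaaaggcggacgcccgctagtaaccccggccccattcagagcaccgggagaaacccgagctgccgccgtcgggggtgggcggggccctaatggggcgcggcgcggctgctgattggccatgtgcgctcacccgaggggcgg

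Read on their own strand, these matches were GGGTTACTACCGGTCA at Abca1 and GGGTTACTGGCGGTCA at Srebf1, identical at 14 of 16 positions. The Abca1 window also held CACGTG once, TATAAA once and GGGCGG at 2 positions, motifs found in 7.15%, 13.6% and 35.7% of all windows. TTCNNNNGAA, the spacing preferred by STAT6, was found in 1 of the 13 windows, at a start of Srebf1 (base 60220627 of chromosome 11), and TTCNNNGAA in 1, that of Lrp1, against 6.95% and 8.30% of all windows. Each match is a run of letters and not a measured binding site.

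The highest score of Abca1 was 2.4 in control and 0.6 after IL-4, which gives -1.62 as the centred log2 ratio (range from rounding, -1.78 to -1.48), or 3.08-fold lower. Both values came from the same place, a segment in intron 1 about 1.37 kb from the gene start. Of the 8879 genes, 227 (2.56%) had a ratio as low. The difference extended beyond this segment: transcripts on the Abca1 strand within the gene numbered 45 in control and 7 after IL-4. They covered 8.31% and 1.33% of the gene's length. In such bulk libraries, fewer cells with active transcription and less nascent RNA per cell cannot be told apart.

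Among 1302 genes with at least 10 own-strand transcripts in either library, the median gene had 1.2 times as many after IL-4. Abca1 had 0.156 times as many, and 21 of the 1302 genes (1.61%) were as low or lower. In all, 10.7% of these genes had a count at most 0.5 times as high after IL-4 and 22.5% one at least 2 times as high. The minimum could be met in a single library. Abca1, Lrp1 and Mylip met it only in control and Abcg1 only after IL-4, each where its count was higher. Their ranks here and below therefore depend on that filter and are no separate support for a difference. The rest of the group met it in neither library.

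Segment by segment, 5 of the 45 control transcripts of Abca1 had an overlapping counterpart after IL-4. In the whole control library, 26995 of 43122 transcripts had a counterpart scored above 0. At 112 kb, in intron 37 of 49, the score was 3.7 in control against 0.7 after IL-4, and both calls were annotated as a simple repeat. At 41.4 kb, in intron 5, it was 1.7 and 0.4, and the IL-4 call was annotated as a simple repeat. The segment at 109 kb, annotated as a repeat in both libraries, scored 0.9 and 0.2, and the one over exon 1, 0.21 kb from the start, 0.4 and 0.2. All 5 were therefore lower, with centred log2 ratios, here relative to the median of 26995 matched transcripts, from -2.08 to -0.68, and the smallest difference was at the start itself. The other 40 control transcripts, with scores from 0.1 to 0.9 and a median of 0.2, had no counterpart, and the 2 calls found only after IL-4 both scored 0.1.

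Transcription at the start and over the body of Abca1 could be set side by side. Within the first 1000 bp of the gene, 2 transcripts were called in control, the higher at 0.5, and 1 after IL-4, at 0.2. Beyond the first 1000 bp there were 43 in control, the highest at 3.7, and 6 after IL-4, the highest at 0.7. No transcript on either strand was called between 50 and 70000 bp upstream of the gene in either library, an interval that contains the position 27 kb upstream after which the study named an enhancer RNA assay, and none was called on the opposite strand within the gene.

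Lrp1 (chr10:127538161-127621148, minus strand), the endocytic receptor, was the other gene at least 2-fold lower. Its highest score was 1.2 in control and 0.4 after IL-4, which gives -1.21 as the centred log2 ratio (range from rounding, -1.46 to -0.98), or 2.31-fold lower, so that the range did not exclude a difference just under 2-fold. The control value came from exon 22 of 89, 43.1 kb into the gene, and the IL-4 value from exon 1. Own-strand transcripts numbered 44 in control and 3 after IL-4, which is 0.068 times as many, and 11 of the 1302 genes (0.845%) were as low or lower. The share of the gene covered was 14.3% in control and 1.07% after IL-4.

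All 3 Lrp1 transcripts called after IL-4 matched a control segment. The exon 22 segment scored 1.2 in control and 0.3 after IL-4, the segment over exon 1 scored 0.9 and 0.4, and the one at 30.7 kb scored 0.2 and 0.1. The centred log2 ratios were -0.85 at the start, -0.68 at 30.7 kb and -1.68 at 43.1 kb. The scores at 30.7 kb differ by a single rounding step, so no trend with distance can be read from these ratios. The other 41 control transcripts ran to 82.3 kb from the start with scores from 0.1 to 0.8 (median 0.2), and none had a counterpart. A transcript on the opposite strand just upstream of Lrp1, in the position of a divergent promoter transcript, scored 0.5 in control and was not called after IL-4.

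**Figure D2:**
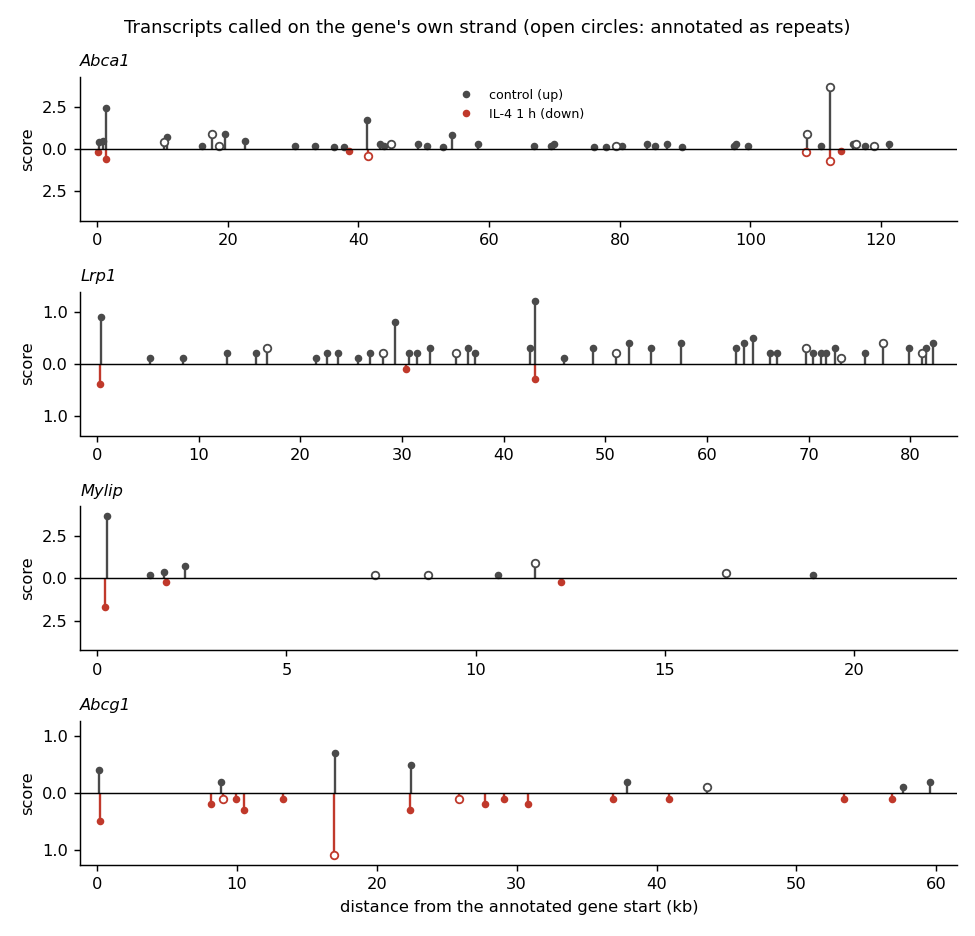
Each stem is a transcript called on the gene's own strand, placed by its midpoint in kb from the annotated gene start, with its height giving the score upward for control (grey) and downward for IL-4 (red), and open circles marking transcripts annotated as repeats. Abca1 thins from 45 stems to 7, Lrp1 from 44 to 3 and Mylip from 10 to 3, with stems left near the start of each, while Abcg1 goes from 8 to 16.

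Mylip (chr13:45389742-45412022, plus strand) peaked over exon 1 in both libraries, with 3.7 in control against 1.7 after IL-4. Relative to the median gene this was a log2 ratio of -0.74 (-0.81 to -0.68 by rounding), short of 2-fold. Own-strand transcripts of Mylip numbered 10 in control against 3 after IL-4 (0.3 times as many), and 58 of the 1302 genes (4.45%) were as low or lower. The control transcripts in introns 1 to 4 and exon 6 scored 0.2 to 0.9, and of these only the one at 1.78 kb, with 0.4, had a counterpart, at 0.2. The first-exon segment was thus kept at a lower score while 8 of 10 control segments were not called after IL-4.

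Abcg1 (chr17:31057675-31117988, plus strand), which passes cholesterol to mature high-density lipoprotein, differed from Abca1 in direction. Its highest score was 0.7 in control and 1.1 after IL-4, which gives 1.03 as the centred log2 ratio (range from rounding, 0.86 to 1.20), and 712 of the 8879 genes (8.02%) had a ratio as high. Both values came from intron 2, about 17.0 kb from the start. The IL-4 call was annotated as a low-complexity repeat and the control call was not. With repeat-annotated transcripts left out the ratio was -0.16. That ratio compares 2 places, the intron 2 segment in control (0.7) and the segment at the gene start after IL-4 (0.5). Own-strand transcripts numbered 8 in control and 16 after IL-4, double the number, which 293 of the 1302 genes (22.5%) equalled or exceeded. They covered 2.30% and 8.40% of the gene. At the start of Abcg1 the score was 0.4 in control and 0.5 after IL-4, at 22.4 kb it was 0.5 and 0.3, and at 8.82 kb 0.2 and 0.1, so the 4 matched segments did not move in 1 direction. The 12 segments called only after IL-4 scored 0.1 to 0.3, at the low end of the scale.

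**Figure D3:**
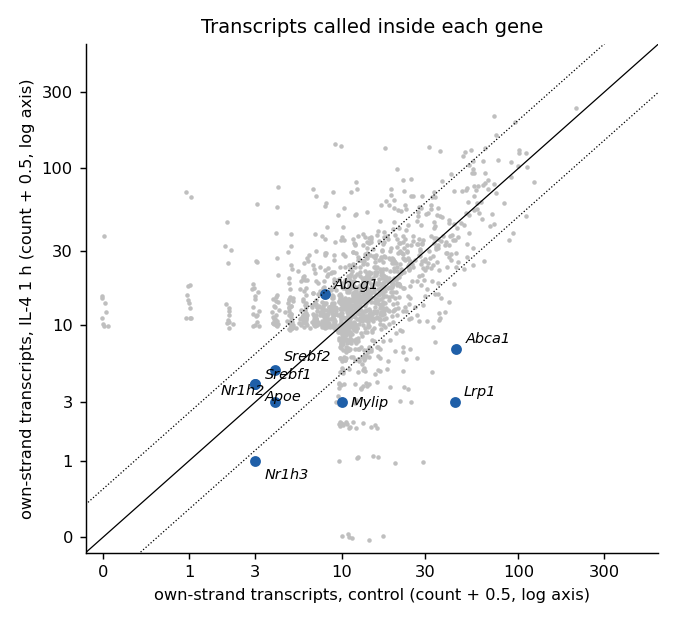
Grey points are the 1302 genes with at least 10 own-strand transcripts in either library and blue points the 9 genes described, plotted as the number of transcripts called inside the gene in control (horizontal) and after IL-4 (vertical) on log axes, with slight scatter added to the grey points, a solid line of equal number and dotted lines at 2-fold either way. Abca1 (45 and 7) and Lrp1 (44 and 3) lie far below the lower dotted line and Abcg1 (8 and 16) near the upper one.

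Apoe (chr7:19696109-19699188, minus strand) had the highest value of the group by named transcripts, shared with Mylip in control. Its exon 4 segment scored 3.7 in control and 3.4 after IL-4, which gives 0.26 as the centred log2 ratio (range from rounding, 0.22 to 0.30). Intron 1 went the other way: the 2 control segments there scored 1.7 and 0.9, and after IL-4 a single segment with 0.3 overlapped the second of them. The calls covered 56.6% of the gene in control and 58.6% after IL-4, and an exon 3 segment with 0.7 was called only after IL-4. Summed score times length per kb of gene was 1554 in control and 1142 after IL-4, higher than for any other of the 9 genes in either library.

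The sterol sensors had low scores. Nr1h2 (chr7:44549616-44553951, minus strand) reached 0.3 in control and 0.2 after IL-4, and its centred log2 ratio of -0.21 has a rounding range, -0.84 to 0.38, that spans 0. Its 4 own-strand control transcripts scored 0.2 to 0.3 and the 3 after IL-4 scored 0.1 to 0.2. Longer calls covered more of the gene after IL-4, 47.6% against 22.3%. Calls were longer in the IL-4 library as a whole, with a median of 312 bp against 227 bp. Nr1h3 (chr2:91184061-91202834, minus strand) carried 1 named transcript, of 468 bp over the first exon of a RefSeq form, with 0.6 in control, and no transcript over that segment was called after IL-4. The other own-strand calls in Nr1h3 lay in an intron at 16.5 kb (0.4, control only) and close to the GENCODE gene start, where the file named the promoter of the neighbouring gene Acp2 (0.2 in control and 0.3 after IL-4).

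Srebf1 (chr11:60199089-60222581, minus strand) listed 0.3 in both libraries, which gives 0.38 as the centred log2 ratio (range from rounding, -0.11 to 0.86). The control value, however, lay on the opposite strand about 35 kb from the start, in an exon of a neighbouring gene. On its own strand the highest score of Srebf1 was 0.2 in control and 0.3 after IL-4, from a segment 2.31 kb from the start that was called in both. A segment of 358 bp that overlaps the promoter printed above and its start scored 0.2 in control and had no counterpart after IL-4, whereas at the other RefSeq starts, bases 60220627 and 60222581, no own-strand transcript overlapped the promoter window in control and 1 did after IL-4, with 0.3 and 0.2, the first being a longer call of that shared segment. All these scores lay within 2 rounding steps of each other and near the lowest score in the control file, 0.1.

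Srebf2 (chr15:82147181-82205379, plus strand) scored 1.2 in control and 0.8 after IL-4 over exon 1, which gives -0.21 as the centred log2 ratio (range from rounding, -0.36 to -0.06). Its 4 own-strand control transcripts and 5 after IL-4 matched only at that exon. The others were weak, with scores of 0.5 and below in control and 0.2 and below after IL-4, and covered little of the gene (1.41% and 2.51%). Srebf2 is also the host of Mir33, the gene of a microRNA known to act on Abca1 mRNA. Both mature forms are shown with the seed, bases 2 to 8, in capitals. The seed of miR-33-5p has matches in the Abca1 3′ UTR, and matches to that of miR-33-3p were not searched.
miR-33-5p, chr15:82198127-82198147, plus strand: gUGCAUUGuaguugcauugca
miR-33-3p, chr15:82198167-82198188, plus strand: cAAUGUUUccacagugcaucac
Abca1 3′ UTR, bases 133 to 158: ttCAATGCAATGCActtCAATGCAac

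The 3 seed matches to miR-33-5p in the 3′ UTR of the longest GENCODE Abca1 transcript, in capitals above, lay within 26 bases and the first and second overlapped. No transcript was called over the Mir33 hairpin in either library, and the transcripts that carried the name Mir33 (2 in control and 3 after IL-4) all lay elsewhere inside Srebf2 on its strand.

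Across the 9 genes, 23 control segments had a counterpart after IL-4. By gene these were 5 of 45 for Abca1, 3 of 44 for Lrp1, 2 of 10 for Mylip and 4 of 8 for Abcg1. For Nr1h2 it was 3 of 4, for Apoe 2 of 3, for Srebf1 2 of 3, for Nr1h3 1 of 3 and for Srebf2 1 of 4. Over all control transcripts it was 26995 of 43122. The scores of the 23 segments are set against each other in the plot of segments called in both libraries.

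**Figure D4:**
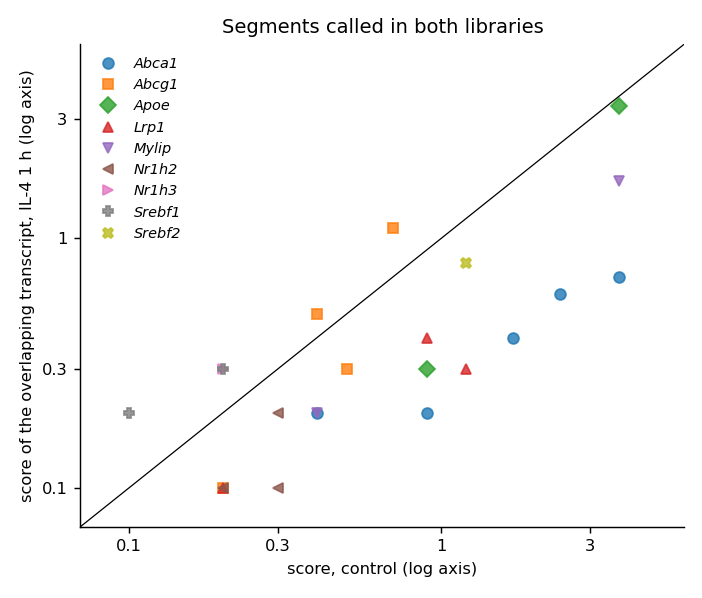
Each symbol is a control transcript inside 1 of the 9 genes that overlapped an IL-4 transcript on the same strand by at least 1 bp, with the control score on the horizontal and the IL-4 score on the vertical log axis and a line of equal scores. The 5 Abca1 and 3 Lrp1 segments lie below the line, the Apoe exon 4 segment (3.7 and 3.4) lies close to it, and Abcg1 has symbols on both sides.

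The other genes of the pathway were described from 6 lists, matched by symbol and read against 8.62% of all genes lower and 8.06% higher. Without the 9 genes the lists held 89 genes, of which 62 had a value in both libraries, 7 were at least 2-fold lower and 1 was at least 2-fold higher, and their median centred log2 ratio was -0.21. Another 6 had a value in control only and 4 after IL-4 only. Cholesterol handling in the cell (esterification, hydrolysis, storage and transport between membranes) had 4 lower of 15 genes (Nceh1, Osbpl8, Plin2 and Cyp27a1), none higher, and a median of -0.62. LXR partners and coregulators had 2 lower of 14 with a value (Tbl1x and Ncoa2) and a median of -0.45. The LXR targets without those described above had 1 lower of 8 (Apoc1) and a median of -0.41. The genes of cholesterol synthesis and SREBP2 targets had none lower or higher of 13 and a median of 0.38, SREBP processing without Srebf1 and Srebf2 had 1 higher of 6 (Insig2) and a median of 0.38, and the lipoprotein receptor family without Lrp1 had none of 8 and a median of -0.17. A centred ratio of 0.38 is that of a gene with the same printed score in both libraries, so these 2 medians of 0.38 show no change in score. Insig2, which retains SREBPs in the endoplasmic reticulum, scored 0.3 and 0.5 (rounding range 0.74 to 1.52), but its own-strand summed score times length had a centred log2 ratio of -1.45. Members of these lists share the centring and the rounding, and low scores take few distinct ratios.

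**Figure D5:**
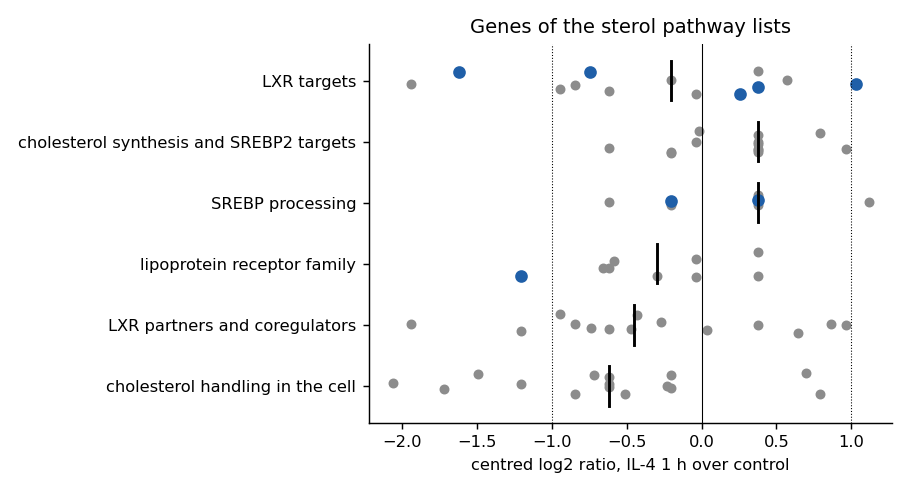
Each point is a gene with a value in both libraries, placed by its centred log2 ratio of highest scores, IL-4 over control, with the genes described above in blue, medians over all genes of a list, the blue ones included, as black bars and dotted lines at 2-fold. Cholesterol handling lies furthest to the left (median -0.62) and cholesterol synthesis has no gene beyond the dotted lines.

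Among the listed genes past 2-fold over the whole rounding range, 3 belong to cholesterol handling. Nceh1, a cholesteryl ester hydrolase, scored 3.8 in control and 0.7 after IL-4 (centred log2 ratio -2.06), with 28 and 19 own-strand transcripts. Osbpl8, an oxysterol-binding protein family member, scored 3.0 and 0.7 (-1.72), with 85 and 34 own-strand transcripts. Plin2, which coats lipid droplets, scored 1.1 and 0.3 (-1.50), with 12 and 6. Tbl1x, a subunit of the NCoR corepressor complex, scored 0.5 and 0.1 (-1.94), with 7 and 1. Apoc1, which adjoins Apoe, scored 1.5 and 0.3 (-1.94), but no own-strand transcript fell inside the gene in either library.

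Rxra, the RXR partner of LXR, did not reach 2-fold by highest score. It scored 0.7 in control and 0.3 after IL-4 (-0.84), with 32 and 20 own-strand transcripts. By own-strand summed score times length Rxra was past 2-fold lower, with a centred log2 ratio of -1.43.

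Score and length were also combined, as the summed score times length of own-strand transcripts. By this measure 4 of the 9 genes, Abca1, Lrp1, Mylip and Nr1h3, were at least 2-fold lower and none was at least 2-fold higher, against 16.9% and 16.6% of 7196 genes. Per kb of gene, the sum was 33.4 in control and 3.29 after IL-4 for Abca1, 43.5 and 2.66 for Lrp1, and 109 and 37.2 for Mylip. The centred log2 ratios were -3.46 for Abca1, -4.15 for Lrp1, -1.67 for Mylip, -2.88 for Nr1h3 and 0.99 for Abcg1. For Nr1h3 the only IL-4 segment in the sum was the one at the promoter of Acp2. That segment itself scored 0.2 in control and 0.3 after IL-4.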

How the data were processed

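GRO-seq was performed on 1 control and 1 IL-4 library of BMDMs. Per the submitters' processing notes, BWA 0.7.10, SAMtools 0.1.19 and HOMER 4.2 were used with build mm10 (GRCm38). The authors called transcripts in each library separately with HOMER, and deposited per transcript a score (column peak score) rounded to 1 decimal. How the score was scaled was not given in the sources used here, so depth, intervals and floors could not be computed.

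The 9 genes and the 6 pathway lists were chosen with earlier results of these data known. Named genes were all 9, Rxra (other genes of the rule are not reported here), and up to 4 per list at least 2-fold over the whole rounding range (±0.05 per score); Insig2, Cyp27a1 and Ncoa2 were named after their values were seen. Gene values were compared after centring on the median gene, and own-strand transcripts were those overlapping the GENCODE M21 gene by at least 1 bp on its strand (lengths clipped to the gene). With 1 library per condition no test was made. Alternatives were other gene values, no centring, and filters on repeats, low values and rounding. Promoters and miRNAs were RefSeq (GRCm38.p6). Computation used Python 3.11.15, pandas 2.3.3 and numpy 2.4.6. The ratio code was tested on simulated data without noise, built from genes with higher control scores only. That test does not bear on calls at low scores.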

Additional observations from a re-analysis of the deposited data

How the results depend on the processing

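The number of genes at least 2-fold lower was 2, and became 4 with the sum of scores, with the named transcript nearest the TSS or with own-strand score times length, and 1 where the whole rounding range had to pass. It stayed at 2 or 3 under the other 6 alternatives. The number at least 2-fold higher was 1, and became 0 without repeat transcripts, without centring, with only genes at or above the median value, with missing values at the lowest score, with the transcript nearest the TSS, with own-strand score times length or over the whole rounding range, and 2 with the sum of scores or the own-strand highest score. The cause of these shifts was not tested. Abca1 and Lrp1 were at least 2-fold lower under the 9 alternatives that recompute the ratio, and Abca1 but not Lrp1 over the whole rounding range. Mylip was at least 2-fold lower under 5 of those 9, and Abcg1 was at least 2-fold higher under 3 of 9. Without repeat transcripts the Abcg1 ratio turned to -0.16, with its 2 values from different segments. The ratio of Apoe had no stable sign. It was below 0 under 5 of the 9 and above 0 under 4, from -1.59 with the named transcript nearest the TSS to 0.29 by the own-strand highest score. Nr1h3, without a named transcript after IL-4, had a centred log2 ratio of -2.88 by own-strand score times length, -2.26 with the missing value at the lowest score and -0.59 by the own-strand highest score, which compares the Nr1h3 exon 1 segment in control (0.6) with a segment at the neighbouring promoter after IL-4 (0.3). The IL-4 sum behind -2.88 came from that same neighbouring segment alone. No paired analysis was possible because each condition has 1 library.

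Without counts or a second library, scores of 0.1 to 0.3, which differ by 1 or 2 rounding steps, cannot be told apart from equal ones, and a segment that was not called is not shown to be silent. Depth could not be compared between the libraries.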

Other observations

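Gene names in the files follow the nearest promoter, which in long genes is often that of a neighbour. Of 20 control transcripts that carried the name Nipsnap3b, 19 lay inside Abca1 on its strand, and by name Nipsnap3b scored 3.7 in control and 0.7 after IL-4 (centred log2 ratio -2.02). On the strand of Nipsnap3b itself the highest score was 0.5 in control and 0.3 after IL-4 (-0.32). Likewise 23 of 24 control transcripts named Nxph4 lay inside Lrp1, and the name was absent after IL-4. All 4 control transcripts named Tff3 and 4 of the 6 after IL-4 lay inside Abcg1.

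The primer pair that the study's primer table lists for Abca1 mRNA did not match Abca1 in the reference used here. Both primers were found, facing each other and 203 bases apart end to end, in 2 of 141767 GENCODE M21 transcripts, both of Angptl4 (chr17:33773750-33781830), a secreted inhibitor of lipoprotein lipase, and neither was found in either of the 2 Abca1 transcripts. Which primers were used in the assay was not tested.
mAbca1 forward primer: tccaatttcccatccatttg
mAbca1 reverse primer: acaggtaccaaaccaccagc

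In the GRO-seq libraries no own-strand transcript was called inside Angptl4 and none carried its name, in control or after IL-4.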
